A study of Mus musculus with 14 samples.

Results

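The miR-200 family comprises the microRNAs (miRNAs) made from 2 loci of the mouse genome, and the members examined here are miR-200b-3p, miR-200a-3p, miR-429-3p, miR-200b-5p and miR-200a-5p from one locus and miR-200c-3p, miR-141-3p and miR-200c-5p from the other. These 8 mature miRNAs were chosen by name from 999 mature miRNAs listed in either of 2 deposited count tables, and all 8 appear in both. The data are small RNA sequencing libraries from the epididymis of male Swiss mice of 8 weeks, whose vasculature was flushed with PBS before the caput, corpus and cauda were dissected. Whole epididymal tissue, pooled from 3 mice for each replicate, gave 3 caput, 2 corpus and 3 cauda libraries. Epithelial cells, which were freed from minced tissue with trypsin and collagenase, strained and cultured briefly after spermatozoa had been washed out (a plating step meant to leave fibroblasts and muscle cells behind, with purity assessed by androgen receptor staining per the study's methods), were pooled from 9 to 12 mice for each replicate and gave 2 libraries for each region. For the cell isolation, spermatozoa were cleared from the cauda by retrograde perfusion, and from the caput and corpus through incisions. In epithelial cells, the cauda and its clearing method therefore cannot be told apart. No genotype other than the strain and no treatment is given for any group. The 2 preparations stand in separate tables, and therefore preparation, library set and table cannot be told apart.

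The miR-200 family is best known for keeping epithelial cells epithelial. Its members repress the transcription factors Zeb1 and Zeb2, which themselves silence the E-cadherin gene and both miR-200 loci, so that the family and the Zeb factors hold each other in check. Each hairpin yields a 3p strand, which is usually the one retained by Argonaute, and a 5p strand, which is usually lost. In the epididymis, a tube of epithelium wrapped in smooth muscle and filled with spermatozoa, the epithelium secretes the proteins in which spermatozoa mature in the caput and corpus and are stored in the cauda.

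The sequences of the 3p strands are given first because they divide the family in a different way than the loci do. The lines below carry the mature sequences from RefSeq (GRCm38.p6), 5′ to 3′, with the seed, bases 2 to 8, in capitals.
miR-200b-3p: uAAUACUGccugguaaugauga
miR-429-3p: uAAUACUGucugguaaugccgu
miR-200c-3p: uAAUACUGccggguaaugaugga
miR-200a-3p: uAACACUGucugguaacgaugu
miR-141-3p: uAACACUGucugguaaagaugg
The seed AAUACUG was shared by miR-200b-3p, miR-429-3p and miR-200c-3p and by no other of 1679 mature mouse miRNAs in the reference, and the seed AACACUG by miR-200a-3p and miR-141-3p alone. The 2 seeds differ at 1 base, U4C from miR-200b-3p to miR-200a-3p, with positions counted from 1 at the 5′ end. Each seed group thus draws members from both loci. Across loci, the closest pairs were miR-200b-3p with miR-200c-3p (U11G and A22G over 22 bases) and miR-200a-3p with miR-141-3p (C17A and U22G over 22 bases).

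The 5p strands, shown because their levels are compared with those of the 3p strands further on, carry seeds of their own.
miR-200b-5p: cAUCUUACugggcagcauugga
miR-200a-5p: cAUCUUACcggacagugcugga
miR-200c-5p: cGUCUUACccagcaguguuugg

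The hairpins of miR-200b, miR-200a and miR-429 lie on the minus strand of chromosome 4, within 1846 bases (GRCm38.p6, chr4:156053905-156055750). All 3 are inside an intron of Ttll10, a gene of the tubulin tyrosine ligase-like family, and inside the processed transcript Gm13648, where the miR-429 hairpin falls in an exon and the other two in an intron. The hairpins of miR-200c and miR-141 lie on the minus strand of chromosome 6, within 477 bases (chr6:124717914-124718390), in an intron of the antisense transcript Gm15884. The miR-141 hairpin also overlaps in part an exon of the unclassified transcript Gm29008. The 2 loci are called the chromosome 4 locus and the chromosome 6 locus below.

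Library totals ran from 1243398 to 2135501 counts in whole tissue and from 89039 to 362867 in epithelial cells, and the 8 members summed to 0.836 to 1.87% of a library in whole tissue and to 1.28 to 2.20% in epithelial cells. The term identified is used for miRNAs with a mean count above 10 in at least 1 region. By this measure 8 of 8 members were among 360 miRNAs identified in whole tissue, and 7 of 8 were among 216 identified in epithelial cells, where miR-200c-5p had 0 or 1 count in every library. Differences were tested with limma-voom on TMM-normalized counts, and a miRNA is said to have risen or fallen where the false discovery rate (FDR, the Benjamini-Hochberg adjusted p) was below 0.05 and the change at least 2-fold. The study's methods describe 2 replicates, whereas the labels and the table give 3 for whole caput and cauda, and all 3 were used. The methods also state that libraries were analyzed in triplicate, so whether the 3 are separate pools is not known. The sources call the replicates biological in one place and technical in another, so the p-values measure only the spread between these libraries, which may be technical.

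miR-200a-3p and miR-141-3p differ by 2 bases, and their counts were tied to each other. Both carried a fraction of 0.5 counts in 7 of 14 libraries and both were whole in the other 7, whereas none of the other members had a fraction in any library. How reads that match both were assigned is not given in the sources used here. Their values are given separately, with the value for the 2 counted as 1 feature where that changed a call. That value is of their summed counts and not of miR-141-3p alone. miR-200a-3p had 2.49 to 4.17 times the counts of miR-141-3p in whole tissue libraries and 2.45 to 5.75 times in epithelial ones, so it made up most of the sum.

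In whole tissue, all 5 of the 3p members fell from the caput to the cauda, and miR-429-3p fell furthest. The levels of miR-200b-3p, in TMM-scaled counts-per-million (CPM), were 2655, 2741 and 2895 in the caput libraries, 2235 and 2120.0 in the corpus libraries and 1476, 1111 and 1204 in the cauda libraries. Those of miR-200a-3p, the most abundant member, were 7164, 8039 and 7019.5 (caput), 5832 and 5516 (corpus) and 3374, 3034 and 2914 (cauda). For both, every caput library lay above every corpus library, and every corpus library above every cauda library.

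miR-429-3p, encoded on the same strand and within the same locus, had 4413, 5236 and 4355 CPM (caput), 1809 and 1322 (corpus) and 1008, 803 and 791 (cauda). Its level was already low in the corpus, where the other chromosome 4 members were only slightly below the caput. On chromosome 6, miR-200c-3p had 3805, 3809 and 3856 CPM (caput), 4108 and 4344 (corpus) and 1846, 1391 and 1889 (cauda). miR-141-3p had 2049.6, 1929 and 1949.8 CPM (caput), 2200.2 and 2212 (corpus) and 1030.3, 905 and 982 (cauda). Both had their highest values in the corpus libraries, but neither was called between caput and corpus, with log2 fold changes of 0.14 (95% interval -0.13 to 0.42) and 0.16 (-0.04 to 0.36). Neither overlapped between the cauda and another region.

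**Figure D1:**
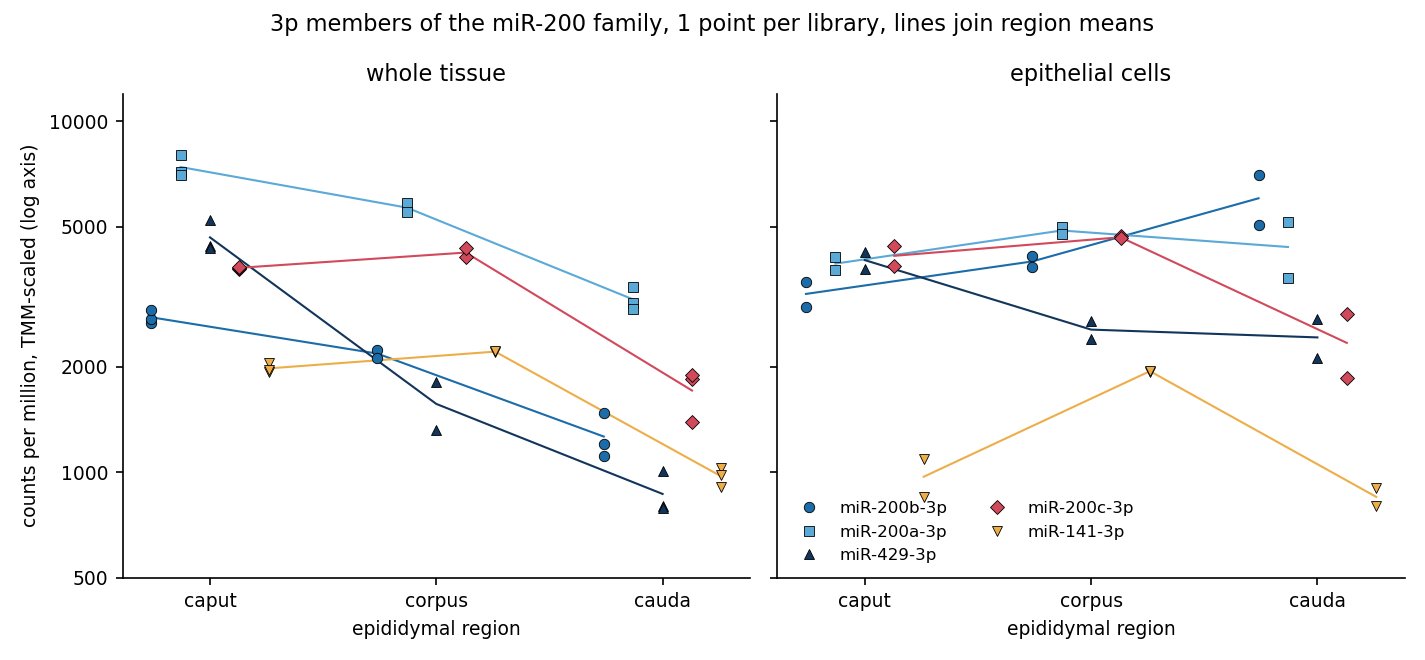
Levels of the 5 members of the 3p arm by epididymal region, in TMM-scaled CPM on a log axis, in whole tissue (left, 8 libraries) and epithelial cells (right, 6 libraries). Each point is 1 library and the lines join region means. In whole tissue all 5 are lowest in the cauda, whereas in epithelial cells miR-200b-3p is highest there, at 5057 and 7012.

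From the caput to the cauda of whole tissue, 5 of the 8 members fell and 0 rose, where 53.2% of the 355 miRNAs tested were called in either direction (27.9% higher, 25.4% lower). These were 99 higher and 90 lower, against 115 and 65 with library totals. The log2 fold change was -2.43 (SE 0.14, FDR 1.65e-07) for miR-429-3p, a 5.38-fold fall. It was -1.25 (SE 0.09, FDR 6.46e-07) for miR-200a-3p and -1.14 (SE 0.11, FDR 5.04e-06) for miR-200b-3p. For the chromosome 6 members it was -1.17 (SE 0.11, FDR 5.82e-06) for miR-200c-3p and -1.02 (SE 0.08, FDR 1.32e-06) for miR-141-3p. A fall in the number of epithelial cells in a bulk library and a fall in miRNA per cell cannot be told apart in these data. The median of the 3p members was -1.17 and that of all miRNAs tested -0.05. Scaling by library totals in place of TMM moved the median of all miRNAs by 0.35 towards the cauda, and 1 of the 5, miR-429-3p at -2.08, then passed both thresholds. The other 4, at -0.79, -0.90, -0.82 and -0.67 in the order miR-200b-3p, miR-200a-3p, miR-200c-3p and miR-141-3p, kept an FDR below 0.05 with less than a 2-fold change. The call on miR-141-3p, close to 2-fold, was also lost without any 1 of 5 of the 8 libraries (caput replicates 1, 2 and 3, corpus replicate 2 or cauda replicate 2), with log2 values from -0.97 to -0.94, with DESeq2 size factors (-0.93) and with at least 10 counts in every library (-0.987).

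The single steps were then compared. Between the caput and the corpus, miR-429-3p fell 3.01-fold (log2 fold change -1.59, SE 0.15, FDR 2.39e-05) and was the only member called, where 29.9% of 334 miRNAs were called in either direction and 15.9% fell (47 higher and 53 lower, against 76 and 35 with library totals). Its locus neighbours miR-200b-3p and miR-200a-3p had log2 values of -0.34 (SE 0.12, FDR 0.0285) and -0.38 (SE 0.10, FDR 0.00735), under the 2-fold threshold. The chromosome 6 members miR-200c-3p and miR-141-3p had 0.14 (95% interval -0.13 to 0.42) and 0.16 (-0.04 to 0.36), neither of which passed the test. From the corpus to the cauda, in turn, the chromosome 6 members fell, miR-200c-3p 2.49-fold (log2 fold change -1.32, SE 0.12, FDR 2.20e-05) and miR-141-3p 2.27-fold (-1.18, SE 0.09, FDR 6.43e-06), where 27.3% of 341 miRNAs were called and 12.9% fell. The summed feature of miR-200a-3p and miR-141-3p gave -0.95 and was not called. The chromosome 4 members had log2 values between -0.87 and -0.79 over the same step, each with an FDR below 0.05 and under 2-fold. Without corpus replicate 2 the fall of miR-429-3p over this step reached -1.06 and was called.

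In epithelial cells, the cauda did not hold the lowest levels of every member. miR-200b-3p had 3485 and 2958 CPM (caput), 3838 and 4136 (corpus) and 5057 and 7012 (cauda). miR-200a-3p had 4103 and 3757 CPM (caput), 4994 and 4774 (corpus) and 3586 and 5179.9 (cauda). For miR-200b-3p, both cauda libraries were above all the other epithelial libraries, while for miR-200a-3p the cauda libraries lay on either side of them.

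miR-429-3p had 4238 and 3805 CPM (caput), 2402 and 2696 (corpus) and 2111 and 2732 (cauda). As in whole tissue, both caput libraries were above the rest, but the corpus and cauda libraries overlapped. On chromosome 6, miR-200c-3p had 4406 and 3866 CPM (caput), 4698 and 4647 (corpus) and 1854 and 2818 (cauda). miR-141-3p had 1094 and 847 CPM (caput), 1935 and 1945 (corpus) and 801 and 900.3 (cauda). Both were highest in the corpus, and for miR-200c-3p both cauda libraries were below every other.

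Between the caput and the cauda of epithelial cells, 0 of 7 members tested were called, where 25.9% of 216 miRNAs were called (13.9% higher, 12% lower). These were 30 higher and 26 lower, against 39 and 19 with library totals. At an unadjusted p under 0.05, and at an FDR under 0.05 as well, 3 of the 7 differed by less than 2-fold: miR-200b-3p with a log2 fold change of 0.89 (SE 0.20, FDR 0.00991), miR-429-3p with -0.75 (SE 0.18, FDR 0.0152) and miR-200c-3p with -0.86 (SE 0.21, FDR 0.0159). The share of all miRNAs at these thresholds was not taken. The quasi-likelihood test of edgeR and the Wald test of DESeq2 also called 0, whereas with library totals miR-200b-3p rose (1.08, FDR 0.0129). Values for miR-200a-3p and miR-141-3p were 0.13 (95% interval -0.33 to 0.59) and -0.19 (-0.65 to 0.27). Leaving out a cauda library changed a call: without cauda replicate 1 miR-200b-3p rose (1.19), and without cauda replicate 2 miR-200c-3p fell (-1.15).

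In the corpus of epithelial cells, against the caput, miR-141-3p rose 2.01-fold (log2 fold change 1.01, SE 0.20, FDR 0.0125) and was the only one of 7 members called, where 12.2% of 205 miRNAs were called (6.34% higher, 5.85% lower). All calls over this step were 13 higher and 12 lower, against 18 and 9 with library totals and 18 and 10 with DESeq2 size factors. Under 2-fold, miR-429-3p had -0.66 (SE 0.19, FDR 0.0470), while miR-200b-3p and miR-200a-3p had 0.31 and 0.32 (FDR 0.328 and 0.313). The miR-141-3p call stood just above the threshold. It was lost without caput replicate 2 (0.82), and on the FDR without corpus replicate 1 (1.01) or replicate 2 (1.00). The summed feature with miR-200a-3p was not called either (0.55, FDR 0.0899). miR-141-3p itself also fell just short of 2-fold by edgeR and by DESeq2 (0.994 each), and under filters of 1 count (0.861) or of 10 counts per library (0.973). From the corpus to the cauda, miR-200c-3p (log2 fold change -1.04, SE 0.22, FDR 0.0245) and miR-141-3p (-1.19, SE 0.20, FDR 0.0102) fell, where 10.9% of 192 miRNAs were called (6.77% higher, 4.17% lower). The miR-200c-3p call was lost without any 1 of 5 of the 6 libraries. These were the caput and corpus libraries (FDR between 0.0733 and 0.129) and cauda replicate 1 (-0.72). It was lost with library totals as well (-1.02, FDR 0.0507). The miR-141-3p call was lost on the FDR without either corpus library (log2 values of -1.20 and -1.19). The summed feature with miR-200a-3p was not called either (-0.46, FDR 0.158). No chromosome 4 member was called over this step, with log2 values of 0.58 for miR-200b-3p (FDR 0.0956), -0.19 for miR-200a-3p and -0.09 for miR-429-3p.

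**Figure D2:**
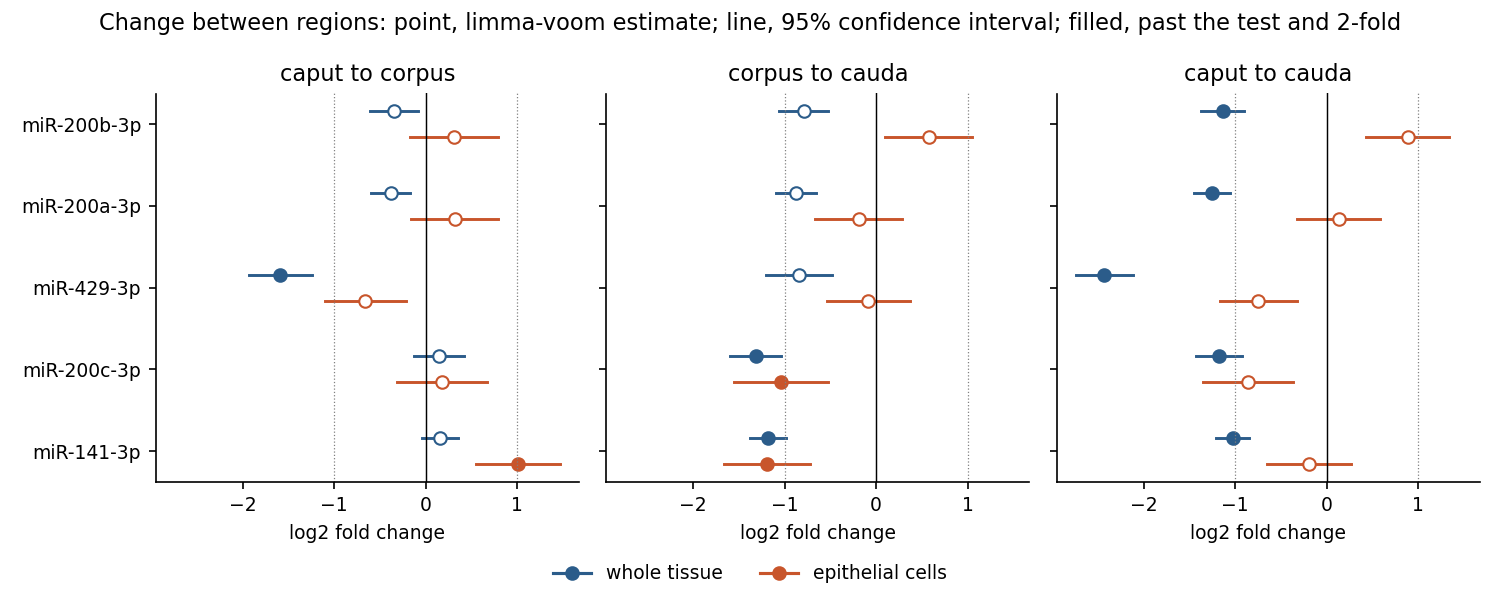
Log2 fold changes of the 5 members of the 3p arm between regions, in whole tissue (blue) and epithelial cells (orange), as limma-voom estimates (points) with 95% confidence intervals (lines). Filled points passed an FDR of 0.05 and a 2-fold change, whose limits are dotted. From the caput to the cauda all 5 whole tissue values lie below -1, whereas the epithelial values run from -0.86 to 0.89.

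A joint fit of the 14 libraries over the 194 miRNAs identified in both preparations under the same name was used to compare the preparations within a region. In the caput, 3 of 7 members were lower in epithelial cells and 0 higher, where 37.1% of the miRNAs were called (15.5% higher, 21.6% lower). On the scale of the joint fit, miR-200a-3p had 7059, 7751 and 7206 CPM in whole caput tissue and 3225 and 3527 in caput epithelial cells, a log2 difference of -1.12 (SE 0.13, FDR 7.33e-06). miR-141-3p, its seed partner from the other locus, had 2019, 1860.3 and 2002 CPM against 859.7 and 795, a difference of -1.24 (SE 0.12, FDR 7.93e-07). The 2 preparations did not overlap for either. The third, miR-200a-5p, had a difference of -1.30 (SE 0.21, FDR 0.000119). miR-200b-3p and miR-200c-3p had 0.01 (95% interval -0.31 to 0.33) and -0.10 (-0.44 to 0.24), and the sign of the latter turned, among other settings, with library totals (0.20). With library totals, which moved the median of all miRNAs in this comparison by 0.30 and all calls from 30 higher and 42 lower to 41 and 27, 0 of the 3 kept a 2-fold difference (-0.82, -0.94 and -0.996). The call on miR-200a-3p was also lost with all miRNAs of at least 1 count (-0.988) and with at least 10 counts in every library (-0.971).

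In the corpus, 0 of 7 members were called between the preparations, where 30.4% of the miRNAs were called (12.4% higher, 18% lower). By limma, 5 of the 7 had an unadjusted p under 0.05, a threshold at which the share of all miRNAs was not taken, and edgeR and DESeq2 also called 0. With miR-200a-3p and miR-141-3p counted as 1 feature, however, miR-200a-5p (-1.15, FDR 0.00661) and miR-200b-5p (-1.10, FDR 0.0355) were called lower, and under a filter of 1 count miR-200a-5p was (-1.04, FDR 0.0156). miR-200b-3p and miR-429-3p were nearest to a higher level in epithelial cells, at log2 differences of 0.76 (SE 0.17, FDR 0.00313) and 0.60 (SE 0.20, FDR 0.0227). miR-200a-5p, at -0.98 (SE 0.29, FDR 0.0149), became a call (-1.21 to -1.06) without either whole tissue corpus library or either epithelial cauda library, and at -1.75 without epithelial corpus replicate 1. miR-200b-5p, at -0.94 (SE 0.42, FDR 0.0728), became one without whole tissue corpus replicate 2 (-1.35), epithelial corpus replicate 2 (-1.62) or epithelial cauda replicate 2 (-1.10).

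In the cauda, miR-200b-3p and miR-429-3p were higher in epithelial cells and miR-200a-5p was lower, 3 of 7 members where 39.7% of the miRNAs were called (21.6% higher, 18% lower). DESeq2 size factors moved the median of all miRNAs here by -0.19 and all calls from 42 higher and 35 lower to 30 and 43. miR-200b-3p had 1598, 1212 and 1352 CPM in whole cauda tissue and 4912 and 6989 in cauda epithelial cells on the joint scale. miR-429-3p had 1091, 876 and 888 CPM against 2051 and 2723. In both, the epithelial libraries stood well clear of the whole tissue ones. The log2 difference was 2.08 (SE 0.15, FDR 6.47e-08) for miR-200b-3p, a 4.23-fold higher level, and 1.31 (SE 0.17, FDR 1.31e-05) for miR-429-3p, which fell to 0.93, under 2-fold, without epithelial cauda replicate 2. miR-200a-5p had a difference of -1.27 (SE 0.26, FDR 0.000691). For the chromosome 6 members the difference was 0.26 (95% interval -0.11 to 0.63) for miR-200c-3p and -0.36 (SE 0.13, FDR 0.0261) for miR-141-3p, neither of them called. miR-200a-3p had 0.31 (0.02 to 0.60, FDR 0.0624).

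The difference between the preparations in the change from the caput to the cauda was tested as an interaction. It passed for the 3 chromosome 4 members of the 3p arm and for neither member of chromosome 6, where 20.1% of the 194 miRNAs were called (15.5% with a higher and 4.64% with a lower epithelial value). These were 30 higher and 9 lower, against 12 and 13 with DESeq2 size factors and 16 and 11 with library totals. The difference of log2 fold changes, epithelial cells minus whole tissue, was 2.07 (SE 0.21, FDR 1.14e-05) for miR-200b-3p, 1.73 (SE 0.23, FDR 7.02e-05) for miR-429-3p and 1.43 (SE 0.19, FDR 7.02e-05) for miR-200a-3p. It was 0.88 (SE 0.17, FDR 0.00238) for miR-141-3p, under the 2-fold threshold, and 0.36 (95% interval -0.15 to 0.86) for miR-200c-3p. The median of all 194 miRNAs was 0.38 on the same measure. miR-200c-3p was thus at the level of the typical miRNA, while miR-141-3p and the chromosome 4 members were above it. Whether the loci differ from each other in this measure was not tested. The value for miR-200a-3p was under 2-fold (0.94) without epithelial cauda replicate 2, and also under a stricter filter of 10 counts per library (0.991, FDR 0.00266). The summed feature of miR-200a-3p and miR-141-3p passed at 1.16 (FDR 0.000525).

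Over the single steps, miR-429-3p differed between the preparations from the caput to the corpus (1.02, SE 0.25, FDR 0.0252), where 4.12% of miRNAs were called (3.61% higher, 0.515% lower), and miR-200b-3p from the corpus to the cauda (1.32, SE 0.23, FDR 0.0096), where 6.7% were called (5.67% higher, 1.03% lower). All calls went from 7 higher and 1 lower to 1 and 2 with library totals over the former step (median moved by -0.27), and from 11 and 2 to 5 and 3 with DESeq2 size factors over the latter (also -0.27). The call on miR-429-3p was lost without any 1 of 8 of the 14 libraries, among them either corpus library of either preparation, at values down to 0.66. It was also lost in 5 of 8 other settings: DESeq2 size factors (0.998), library totals (0.749), filters of 1 count (0.833) or 10 counts per library (0.739), and the single feature (0.852). That on miR-200b-3p was kept whichever library was left out. miR-141-3p had 0.94 (SE 0.18, FDR 0.00674) from the caput to the corpus, and miR-200a-3p 0.80 (SE 0.20, FDR 0.0264), both under 2-fold. The 5p members tested, miR-200b-5p and miR-200a-5p, were called in 0 of the 3 interaction comparisons, and neither had an unadjusted p under 0.05 in any of them.

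**Figure D3:**
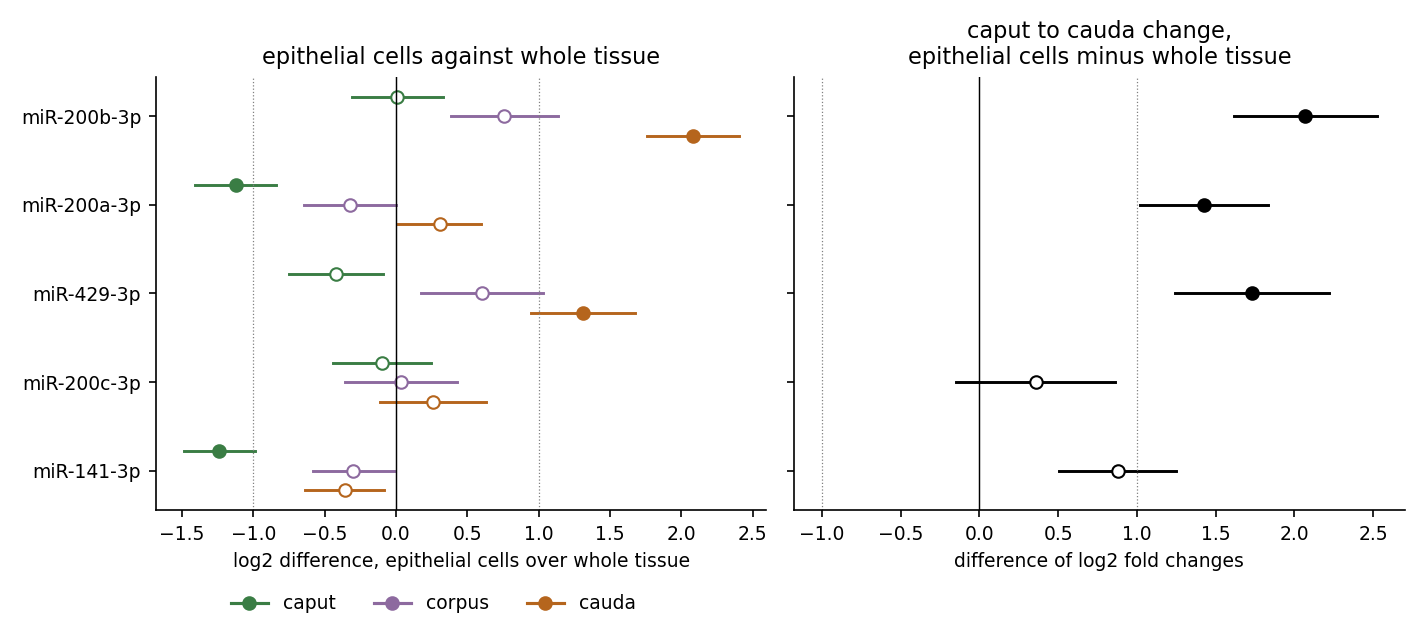
Log2 difference of the 5 members of the 3p arm between epithelial cells and whole tissue in each region (left), and the difference between the preparations in the caput to cauda change (right). Points are limma-voom estimates, lines are 95% confidence intervals, filled points passed an FDR of 0.05 and a 2-fold difference. miR-200b-3p moves from 0.01 in the caput to 2.08 in the cauda, whereas miR-200c-3p stays between -0.10 and 0.26.

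Ratios between members within a library do not depend on how the libraries are scaled. The ratio of miR-200b-3p to miR-200c-3p, 1 member from each locus with the same seed, was between 0.488 and 0.890 in all whole tissue libraries and in the caput and corpus epithelial libraries. In the 2 cauda epithelial libraries it was 2.49 and 2.73. In whole tissue it was 0.723 ± 0.0268 (caput, SD, n = 3), 0.516 ± 0.0395 (corpus, n = 2) and 0.745 ± 0.0934 (cauda, n = 3), and the log2 ratios of caput and cauda differed by 0.04 (p = 0.8, exact permutation test, two-sided).

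The other pair with a shared seed, miR-200a-3p and miR-141-3p, had in whole tissue a ratio of 3.75 ± 0.361 (caput, SD, n = 3), 2.57 ± 0.111 (corpus, n = 2) and 3.20 ± 0.205 (cauda, n = 3). Caput and cauda libraries did not overlap, and the log2 ratios differed by -0.23 (p = 0.1, exact permutation test, two-sided), where 0.1 is the smallest p that 3 libraries against 3 allow. In epithelial cells it was 3.75 and 4.43 (caput), 2.45 and 2.58 (corpus) and 4.48 and 5.75 (cauda). The corpus was lowest in both preparations. The chromosome 4 locus as a whole took 71.9% of the 3p counts of the family in whole caput, 59.4% in corpus and 66.2% in cauda, and 68.7, 63.3 and 80.1% in the same regions of the epithelial cells.

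Within the chromosome 4 locus, the ratio of miR-429-3p to miR-200b-3p in whole tissue was 1.69 ± 0.205 (caput, SD, n = 3), 0.716 ± 0.132 (corpus, n = 2) and 0.687 ± 0.0333 (cauda, n = 3). In epithelial cells it was 1.22 and 1.29 (caput), 0.626 and 0.652 (corpus) and 0.390 and 0.418 (cauda). In both preparations, every caput library was above 1 and every corpus and cauda library below it. The hairpins of these 2 members are the outer ones of the locus. The seed group AAUACUG took 54.5% of the 3p counts in whole caput, 50.3% in corpus and 48.4% in cauda, and between 61.2 and 70.0% in every epithelial library. That range lay above the highest whole tissue library, at 55.3%.

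**Figure D4:**
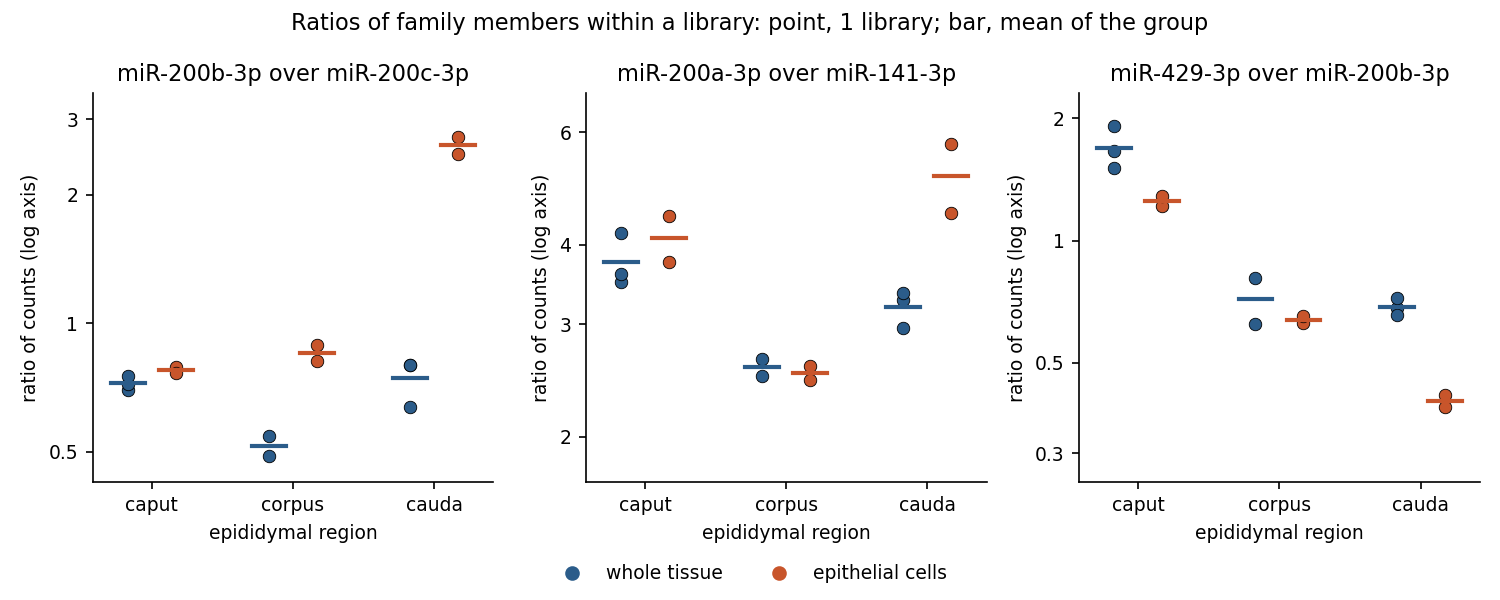
Ratios of counts of family members within a library, on log axes, by region in whole tissue (blue) and epithelial cells (orange). Points are single libraries and bars are group means. The ratio of miR-200b-3p to miR-200c-3p is at 2.49 and 2.73 in the cauda epithelial libraries and below 1 in every other, and that of miR-429-3p to miR-200b-3p is above 1 in the caput alone.

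The 5p strands were minor products of every hairpin. In whole tissue, miR-200a-5p averaged 316 ± 27.3 CPM (caput, SD, n = 3), 247 ± 6.41 (corpus, n = 2) and 198 ± 19.0 (cauda, n = 3). For miR-200b-5p the means were 96.4 ± 2.26, 93.8 ± 27.9 and 63.5 ± 3.85 in the same order. Of the 3 members of the 5p arm, miR-200c-5p was the lowest, with 12 to 41 counts per library. The 5p strand of miR-429, which is not among the members, had 0 or 1 count in every whole tissue library. None was called between regions: from the caput to the cauda the log2 fold changes were -0.66 (SE 0.11, FDR 0.00034) for miR-200a-5p, -0.61 (SE 0.16, FDR 0.00587) for miR-200b-5p and -0.80 (SE 0.39, FDR 0.0822) for miR-200c-5p. In epithelial cells miR-200a-5p rested on 8 to 53 counts per library and miR-200b-5p on 4 to 26, and neither was called between regions. For miR-200c-5p, 0 counts in caput replicate 2 of the epithelial cells allow up to 9.23 CPM without TMM scaling, below the 15.5 to 23.6 of the whole caput libraries on that scale. In the corpus, 0 counts in both epithelial libraries allow up to 23.6 and 33.7, against 10.8 and 29.8 in whole tissue, so these limits do not separate the preparations there. With a filter of 1 count in place of the mean above 10, miR-200c-5p was tested and called lower in the epithelial corpus. That call sets 37 and 15 counts in whole corpus against 0 in both epithelial libraries, where the limits do not separate the preparations. The limits cover counting error only.

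The 5p strand's share of a hairpin's counts was set beside the preparations for 3 hairpins. In the epithelial corpus they rest on few counts, 4 and 7 for miR-200b-5p and 13 and 4 for miR-141-5p. For the miR-141 hairpin, whose 5p strand is in the tables although it is not among the members chosen, the 5p share was between 17.2 and 20.3% in the whole tissue libraries and between 2.06 and 8.68% in the epithelial ones. That of the miR-200b hairpin was between 3.26 and 5.50% against 0.839 and 2.75%. In both, every epithelial library lay below every whole tissue library. For the miR-200a hairpin the share was 4.08 ± 0.110% (SD, n = 3) in whole caput and 5.99 ± 0.153% (n = 3) in whole cauda, and 3.59 ± 0.387% and 2.07 ± 0.236% (n = 2 each) in the epithelial cells of the same regions. It stood higher in the cauda than in the caput in whole tissue and lower in epithelial cells, with no overlap in either. These shares were not tested, and for the miR-200a and miR-141 hairpins they rest on 3p counts in which reads of the 2 members may be mixed.

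**Figure D5:**
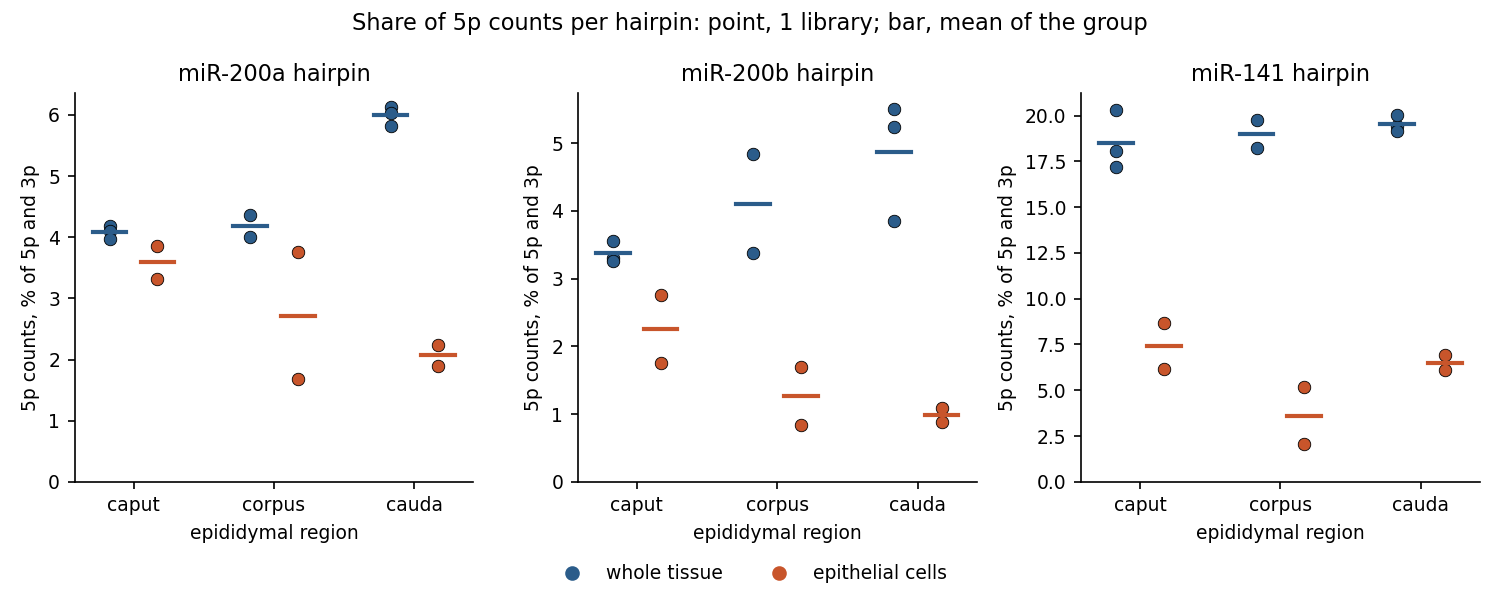
Counts of the 5p strand as a percent of the 5p and 3p counts of a hairpin, by region, in whole tissue (blue) and epithelial cells (orange). Points are single libraries and bars are group means. For the miR-141 hairpin the whole tissue libraries lie at 17.2% or above and the epithelial libraries at 8.68% or below.

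Other miRNAs known from epithelia were set beside the family: miR-205-5p and miR-203-3p, of stratified and basal epithelium, the miR-183 cluster (miR-182-5p, miR-183-5p, miR-96-5p), the miR-192 group (miR-192-5p, miR-194-5p, miR-215-5p), miR-31-5p and miR-375-3p, of secretory cells. Of these 10, 9 were tested, and miR-215-5p was not identified. From the caput to the cauda of whole tissue, 0 rose and 4 of 9 fell, where 25.4% of all miRNAs tested fell, with log2 fold changes of -1.93 for miR-182-5p, -1.83 for miR-183-5p, -1.62 for miR-96-5p and -3.82 for miR-375-3p. In epithelial cells 0 rose and 3 of 9 fell, where 12% of all fell: miR-182-5p (-1.56), miR-31-5p (-2.01) and miR-375-3p (-4.01). Their summed level was 2.33 to 2.74% of counts in whole caput and 0.858 to 0.948% in whole cauda, and between 2.63 and 3.56% in the epithelial libraries. In the latter, miR-205-5p alone took 0.990 to 1.03% of counts in the caput, 2.02 to 2.45% in the corpus and 1.92 to 2.63% in the cauda. miR-215-5p was at 0 in all 3 regions of the epithelial cells. In epithelial cells against whole tissue, 2 of the 9 were higher and 1 lower in the caput, 2 higher and 3 lower in the corpus, and 3 higher and 1 lower in the cauda, with median log2 differences of -0.69, -0.83 and -0.11. Over all miRNAs 15.5% were higher and 21.6% lower (caput), 12.4% and 18% (corpus), and 21.6% and 18% (cauda). The 2 that were higher in every region were miR-203-3p (1.02, 1.81 and 1.94 from caput to cauda) and miR-205-5p (2.25, 3.35 and 4.12). In the interaction test from the caput to the cauda, 3 of the 9 had a higher and 1 a lower epithelial value, where 15.5% and 4.64% of all did, with a median of 0.59. The 3 were miR-205-5p (1.87), miR-183-5p (1.22) and miR-96-5p (1.17), and the lower was miR-31-5p (-1.90).

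Markers of other cell types changed along the tube too. The 6 muscle miRNAs (miR-143-3p, miR-143-5p, miR-145-5p, miR-145-3p, miR-133a-3p and miR-1-3p), nearly all miR-143-3p, summed to 4.54 to 5.90% of counts in whole caput, 8.38 to 8.66% in whole corpus and 24.9 to 27.1% in whole cauda, and 6 of 6 rose from caput to cauda, where 27.9% of all miRNAs tested rose. In epithelial cells they summed to 12.8 to 18.7% in the caput, 20.6 to 23.2% in the corpus and 18.5 to 32.0% in the cauda, and 0 of 4 tested were called, where 25.9% of all were. None of the 6 was at 0 in any region, and their summed share was higher in every epithelial caput and corpus library than in the whole tissue of the same region. Of the 6, 2 were tested between preparations, miR-143-3p and miR-133a-3p, and both were higher in the epithelial caput (1.26 and 3.75) and corpus (1.28 and 2.99) and neither was called in the cauda. Over all miRNAs 15.5% (caput) and 12.4% (corpus) were higher, and 39.7% were called in the cauda. In the caput to cauda interaction, where 4.64% of all miRNAs were lower, miR-143-3p was lower in epithelial cells (-1.52, FDR 0.00297), and miR-133a-3p had -3.11 (FDR 0.052). The 11 germ cell miRNAs (miR-34c-5p, miR-34b-5p, miR-449a-5p, miR-465a-3p, miR-465a-5p, miR-741-3p, miR-743a-3p, miR-871-3p, miR-880-3p, miR-881-3p and miR-883a-3p) summed to 0.368 to 0.446% in whole caput and 1.06 to 1.36% in whole cauda, where 9 of 11 rose against the same 27.9%, and to 0.363 to 0.380% (caput), 0.250 to 0.334% (corpus) and 0.232 to 0.685% (cauda) in the epithelial libraries. There, 3 of 7 tested rose from caput to cauda, where 13.9% of all did, with a median log2 fold change of 1.88. A large part of these sums was miR-34c-5p, with 0.303 to 0.399% in whole caput and 0.817 to 0.970% in whole cauda, and 0.332 to 0.345% (caput), 0.169 to 0.174% (corpus) and 0.156 to 0.504% (cauda) in epithelial cells, where it was not among the 3 that rose (-0.49, FDR 0.324). Between preparations, 2, 2 and 6 of the 7 germ cell miRNAs tested were lower in epithelial cells in the caput, corpus and cauda, and in the caput to cauda interaction 1 of 7 was lower and 0 higher. Over all miRNAs 21.6%, 18% and 18% were lower in the same regions, and 4.64% were lower and 15.5% higher in the interaction. miR-880-3p was at 0 in both caput epithelial libraries. Their part in the fall of the family in whole tissue was not tested.

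Some miRNAs of the other lists are named differently in the 2 tables, such as miR-126a-5p in whole tissue and miR-126-5p in epithelial cells. They were matched by these names for the summed shares and for tests within a preparation. The joint fit took only miRNAs named alike in both, so that 0 of the 2 endothelial miRNAs were tested between preparations. The 8 members are named alike in both. Whether both tables were counted against the same set of sequences was not tested, which bears on every difference between the preparations given here, those of the members included. The 2 endothelial miRNAs, both arms of miR-126, summed to 1.24 to 1.93% of counts in whole tissue, to 1.39 to 3.17% in caput and corpus epithelial cells and to 5.37 to 5.45% in cauda epithelial cells, the group in which miR-200b-3p was highest. The fibroblast list (both arms of miR-199a, miR-199b and miR-214) summed to 0.177 to 0.484% in whole tissue and 0.266 to 0.667% in epithelial cells, the red blood list (miR-451, miR-144-3p, miR-144-5p and miR-486-5p) to 0.00745 to 0.144% and 0.0201 to 0.281%, and the leukocyte list (miR-142-3p, miR-142-5p, miR-150-5p, miR-155-5p and miR-223-3p) to 0.0863 to 0.221% and 0.0449 to 0.161%, each with its highest library in the cauda in both preparations. Their part in the family's values was not tested.

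The miRNAs whose levels ran most alike to each locus were ranked by the mean of 2 Pearson correlations, over 8 whole tissue and 6 epithelial libraries, with the log2 CPM of the summed 3p members of the locus, among 186 candidates. For the chromosome 4 locus they were miR-17-5p (0.90), miR-93-5p (0.88), miR-20a-5p (0.83), miR-351-5p (0.82) and let-7d-3p (0.76). For the chromosome 6 locus they were let-7g-5p (0.94), miR-210-3p (0.92), let-7f-5p (0.90), miR-375-3p (0.88) and miR-10b-5p (0.87). No miRNA was in both groups of 5. These are descriptions of the libraries, which share depth, scaling and region differences.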

How the data were processed

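Small RNA libraries were sequenced from whole epididymal tissue and from isolated epithelial cells. Per the study's methods and the submitters' processing notes (CASAVA 1.8.2, Bowtie 1.1.1, limma), reads were trimmed, screened against PhiX, adaptor, mitochondrial and ribosomal sequences, and aligned to mm10 and to mature miRBase miRNAs. The authors deposited 1 table for each preparation, which holds unnormalized expected counts, partly fractional, for mature miRNAs. How fractions arose is not given in the sources used here. The epithelial table carried 0.001 on every value, which was removed. Groups were taken from the sample labels. The members and the lists of other miRNAs were chosen with earlier results of these data known.

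Counts were rounded to whole numbers and tested with limma 3.58.1 (voom) in R 4.3.3, with TMM factors from edgeR 4.0.16, in 1 fit for each preparation, and in 1 joint fit of 14 libraries for comparisons of preparations. miRNAs with a mean count above 10 in either region compared (in both preparations, for the joint fit) were tested, p-values were adjusted by Benjamini-Hochberg over all of them, and calls needed an FDR below 0.05 and a 2-fold change. Ratios were compared by exact permutation tests. Depth was 1243398 to 2135501 counts in whole tissue and 89039 to 362867 in epithelial cells. The limit for 0 counts was set at 3 counts. All 8 members were named in the text, with the lists and the 5 miRNAs most like each locus. Scripts were tested on simulated data. Alternatives were edgeR's quasi-likelihood test, DESeq2 1.42.0 (Wald test and size factors), library totals, other count filters, miR-200a-3p and miR-141-3p as 1 feature, only the regions compared, a replicate block and leaving out each library.

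Replicate numbers in the labels are shared between regions. Deviations from the group means of same-numbered caput and cauda whole tissue libraries correlated at 0.2175, 0.1214 and 0.1222, each over 0.1, which met the rule for treating these 3 pairs as paired. The pairing comes from the data, not from the labels. Same-numbered caput and corpus libraries of whole tissue correlated at -0.006836 and -0.0136, and corpus and cauda libraries at 0.2314 and 0.1491. The deposited corpus columns carry numbers that do not follow directly on those of the caput. Whether their replicate numbers match those of the other regions is therefore not known. The results given are from fits and ratio tests without the block, and the paired versions were run as alternatives.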

Additional observations from a re-analysis of the deposited data

Results flagged for a closer look

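In 5 cases a member's change between regions differed between the 2 preparations by the interaction test (epithelial cells minus whole tissue, log2). From the caput to the cauda these were miR-200b-3p (2.07), miR-429-3p (1.73) and miR-200a-3p (1.43), from the corpus to the cauda miR-200b-3p (1.32), and from the caput to the corpus miR-429-3p (1.02). The last was lost in 5 of 8 other settings and without any 1 of 8 of the 14 libraries, and that of miR-200a-3p fell under 2-fold without epithelial cauda replicate 2 (0.94) and with at least 10 counts in every library (0.991). The first 3 are members of the chromosome 4 locus, and the preparations stand in separate tables, so preparation and library set cannot be told apart. The median over all 194 miRNAs was 0.38 from the caput to the cauda.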

How the results depend on the processing

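Of 688 values under alternative settings, 638 kept the direction and the side of the threshold, and 20 reversed. The members called in whole tissue went from 5 to 1 from the caput to the cauda with library totals, and from 2 to 1 from the corpus to the cauda with miR-200a-3p and miR-141-3p as 1 feature. In epithelial cells, the 1 called from the caput to the corpus went to 0 with edgeR, with DESeq2, with all miRNAs of at least 1 count, with at least 10 counts in every library and with the single feature, and without single libraries it was 0 to 1. From the corpus to the cauda the 2 became 1 with library totals (miR-200c-3p lost) and with the single feature (miR-141-3p lost) (0 to 2 without single libraries), and from the caput to the cauda the 0 became 1, miR-200b-3p, with library totals (0 to 1 without single libraries). Between preparations, the 3 of the caput became 0 with library totals and 1 with at least 10 counts in every library, and the 0 of the corpus became 2 with at least 1 count (miR-200a-5p and miR-200c-5p) and with the single feature (0 to 2 without single libraries). The 1 of the caput to corpus interaction became 0 with DESeq2 size factors, library totals, at least 1 count, at least 10 counts and the single feature (0 to 1 without single libraries). The cause was not tested. The log2 change of the miR-200b-3p to miR-200c-3p ratio ran from -0.019 to 0.15 without single libraries.

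With the single feature the reversed values were -0.23 for miR-141-3p from the caput to the corpus of whole tissue and 0.092 from the caput to the cauda of epithelial cells, 0.024 for its cauda difference between preparations, 0.50 for its corpus to cauda interaction, -0.13 for the corpus difference of miR-200c-3p and -0.038 for its caput to corpus interaction. Those listed for miR-141-3p are values of the summed feature, set against miR-141-3p alone. With library totals they were 0.25 for miR-200b-5p and 0.067 for miR-200a-5p from the caput to the corpus (whole tissue and epithelial cells), 0.20 for the caput difference of miR-200c-3p and -0.14 for its caput to corpus interaction. With DESeq2 size factors miR-200c-3p had 0.0070 in the caput and -0.034 in the corpus to cauda interaction. With at least 1 count the values were 0.035 (caput), -0.031 (corpus) and -0.065 for the caput to corpus interaction. With at least 10 counts in every library they were 0.053, -0.10 and -0.041 (caput, corpus, cauda), and -0.15 and -0.094 in its caput to corpus and caput to cauda interactions.

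Without single libraries, where a lone library left in a group was assumed to vary like the others, 29 of 822 values reversed. In whole tissue the ranges were -0.38 to 0.29 for miR-200b-5p and -1.12 to 0.40 for miR-200c-5p from the caput to the corpus, and -1.13 to 0.32 for miR-200c-5p from the corpus to the cauda. In epithelial cells they were -1.01 to 0.056 for miR-200b-5p and -0.76 to 0.43 for miR-200a-5p from the caput to the corpus. From the corpus to the cauda they were -0.45 to 0.088 for miR-200a-3p, -0.27 to 0.12 for miR-429-3p, -0.33 to 0.74 for miR-200b-5p and -1.11 to 0.087 for miR-200a-5p. From the caput to the cauda miR-200a-3p ran from -0.13 to 0.46. Between preparations they were -0.024 to 0.069 for miR-200b-3p in the caput, -0.21 to 0.036 for miR-200c-3p in the corpus, and -0.16 to 0.48 for miR-200a-3p and -0.23 to 0.48 for miR-200c-3p in the cauda. For the interactions of miR-200c-3p they were -0.14 to 0.17 (caput to corpus), -0.12 to 0.59 (corpus to cauda) and -0.17 to 0.55 (caput to cauda), and for miR-141-3p -0.19 to 0.084 (corpus to cauda).

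Library totals moved the median log2 value of all miRNAs by 0.33 from the caput to the corpus and 0.35 to the cauda of whole tissue, and the calls there from 47 higher and 53 lower to 76 and 35, and from 99 and 90 to 115 and 65. DESeq2 size factors moved the median of the caput to cauda interaction by -0.30, and its calls from 30 higher and 9 lower to 12 and 13, and took all calls of the corpus to cauda interaction from 13 to 8. Library totals took those of the caput to corpus interaction from 8 to 3. With the replicate block, 5 members were called from the caput to the cauda of whole tissue and 187 of 355 miRNAs against 189, and no call on a member changed in any comparison. With pairing, the exact p of the ratio tests was 1 for miR-200b-3p to miR-200c-3p and 0.25, the smallest that 3 pairs allow, for miR-200a-3p to miR-141-3p. In epithelial cells the caput and cauda numbers correlated at -0.1371. Pairing them crosswise, chosen after seeing the data, called 64 of 216 miRNAs against 56 without and 52 with the block as numbered, and 0 members in each. Depth limits the 5p members most, which had as few as 0 to 8 counts in an epithelial library and gave no epithelial value with at least 10 counts in every library.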
